A study of Mus musculus with 30 samples.

Results

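The genes described are 4 bone morphogenetic protein (BMP) ligands, Bmp2, Bmp4, Bmp5 and Bmp7, and 6 genes that BMP signalling is known to raise: Id1, Id2, Id3, Smad6, Smad7 and Msx2. They were taken by name, with earlier results of these data known, as 10 of the 55487 genes in each RNA count table. BMP ligands bind paired serine/threonine kinase receptors at the cell surface, which phosphorylate SMAD1, SMAD5 and SMAD9. These join SMAD4 and enter the nucleus, where they raise direct target genes. Among the targets, the Id genes encode inhibitors of basic helix-loop-helix factors, Smad6 and Smad7 encode inhibitory SMADs that act back on the receptors, and Msx2 encodes a homeobox factor. In differentiating mouse embryonic stem cells, BMP4 is known as an inducer of posterior mesoderm, from which blood and endothelium arise.

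The series holds 30 samples in 10 groups of 3, all labelled as mouse embryonic stem cells, and 18 of them are RNA libraries in 6 groups. The first experiment has the cell line iETV2 without and with doxycycline (DOX), treated to express ETV2, an ETS transcription factor of blood and vessel progenitors also called ER71. The second has the line iETV2-KDM4A (H188A), here called the H188A line, without and with DOX. KDM4A is a histone demethylase of lysine 9 of histone H3. The third has cells labelled Control and a double knockout under the genotype KDM4A/4C DKO, with no line or treatment named. The fourth is ChIP-seq of H3K9me3, the trimethylated form of that lysine, with 3 libraries with DOX and 3 without. Its titles begin with EB, those with DOX add D2 or D3, and 1 of them adds Er71-Flag. The labels give no DOX dose or time for RNA and no clone, and nothing says that replicates were separate cultures, so p-values measure only the spread between these libraries.

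Library totals were 40334911 to 68970038 counts. Etv2 rose with DOX from 2.93 ± 0.18 to 18.6 ± 0.89 CPM (counts scaled to 1000000 per library; mean ± SD, n = 3) in iETV2 and from 0.376 ± 0.27 to 15.2 ± 3.54 CPM in the H188A line (edgeR adjusted p = 1.42e-11 and 7.13e-05). In the knockout experiment, Kdm4a was at 54.6 ± 0.94 CPM in control and 43.9 ± 2.62 CPM in the libraries labelled DKO, and Kdm4c was at 30.7 ± 1.32 and 45.5 ± 2.64 CPM (edgeR log2 change -0.44 ± 0.05, adjusted p = 6.82e-08, and 0.45 ± 0.06, adjusted p = 5.02e-07). RNA over the whole gene need not show a deletion, but Kdm4c was higher where the label has it knocked out, so that every direction below refers to the libraries labelled DKO. The pluripotency genes Pou5f1, Nanog and Sox2 were at 22.8 ± 0.53, 6.98 ± 0.75 and 4.60 ± 0.47 CPM in control, far below the 369 ± 17.8, 210 ± 5.11 and 110 ± 1.83 CPM of the libraries labelled DKO, so the control libraries had low levels of genes that define the labelled cell type. Between the H188A line and iETV2, Kdm4a did not pass without DOX (edgeR log2 difference 0.02 ± 0.07, adjusted p = 0.867) or with it (0.08 ± 0.07, adjusted p = 0.363). Within the H188A line it did not pass with DOX either (edgeR log2 change 0.11 ± 0.05, adjusted p = 0.262). Summed chemosensory receptor genes, which are not expected in these cells, were at 625, 205 and 53.4 CPM in replicates 1 to 3 of the H188A line without DOX. In the other 15 libraries they were at 20.6 to 189 CPM. In the H188A line with DOX, summed visceral endoderm markers were at 814 CPM in replicate 1 and at 390 and 397 CPM in the others.

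A few promoters are shown to place the genes, as the 250 bases before the start of the gene in RefSeq (GRCm38.p6), read 5′ to 3′ on the gene's strand. Of the 10 genes, 6 had a promoter in the table used. Capitals mark matches, on either strand, to GGCGCC, a GC-rich SMAD element, to GTCTAGAC, a palindromic SMAD element, or to CCGGAA, an ETS core that reads TTCCGG on the other strand. No 2 of these motifs overlapped in the windows shown. Bmp4 and Msx2 are shown because they had the largest DOX increases in iETV2, Id2 because it holds a SMAD element, and Id3 as an Id gene beside it. The windows lie at chr14:46390670-46390919 (Bmp4, minus strand), chr13:53472781-53473030 (Msx2, minus strand), chr12:25096093-25096342 (Id2, minus strand) and chr4:136143572-136143821 (Id3, plus strand).
Bmp4: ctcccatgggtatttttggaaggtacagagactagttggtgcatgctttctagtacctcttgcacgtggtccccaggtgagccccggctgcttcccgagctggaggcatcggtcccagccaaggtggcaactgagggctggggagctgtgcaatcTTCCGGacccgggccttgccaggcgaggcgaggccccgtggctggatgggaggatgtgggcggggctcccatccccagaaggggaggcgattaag
Msx2: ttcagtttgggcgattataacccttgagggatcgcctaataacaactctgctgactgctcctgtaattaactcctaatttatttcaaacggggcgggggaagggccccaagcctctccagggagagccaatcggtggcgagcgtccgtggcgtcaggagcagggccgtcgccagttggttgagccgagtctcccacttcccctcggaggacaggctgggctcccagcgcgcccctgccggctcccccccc
Id2: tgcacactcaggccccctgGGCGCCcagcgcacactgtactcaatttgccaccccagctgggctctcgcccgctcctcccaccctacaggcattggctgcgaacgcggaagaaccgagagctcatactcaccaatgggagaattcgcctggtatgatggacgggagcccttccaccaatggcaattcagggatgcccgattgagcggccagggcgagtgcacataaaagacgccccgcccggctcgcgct
Id3: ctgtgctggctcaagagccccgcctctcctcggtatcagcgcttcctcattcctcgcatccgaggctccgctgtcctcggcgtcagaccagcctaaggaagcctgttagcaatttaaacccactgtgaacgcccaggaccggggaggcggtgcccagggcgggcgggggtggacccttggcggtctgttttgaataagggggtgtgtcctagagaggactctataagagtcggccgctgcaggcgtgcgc
The Bmp4 window held 1 CCGGAA match and the Id2 window 1 GGCGCC match. The windows of Bmp5, Id3, Smad6 and Msx2 held none of the 3 motifs. Of 32851 mouse promoter windows of that length, 3952 held CCGGAA, 3149 (9.59%) held GGCGCC and 55 (0.167%) held GTCTAGAC. A match is a string of letters, not a measured binding site.

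With DOX in iETV2, all 10 genes passed the test: 8 rose and 2 ligands, Bmp2 and Bmp7, fell. Of all 22025 genes tested, 13.7% rose and 13.3% fell. The median log2 change of the 10 was 0.94, beside 0 over all genes tested. Changes are from edgeR's quasi-likelihood test on the 6 libraries of the experiment, given as log2 change ± SE with Benjamini-Hochberg adjusted p over all genes tested and a threshold of 0.05. In bulk RNA, fewer cells of a type and less RNA per cell cannot be told apart.

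Bmp4 (ENSMUSG00000021835, chromosome 14, 46383525 to 46390669, GRCm38.p6), the mesoderm-inducing ligand, was at 6.32, 5.35 and 6.67 CPM without DOX and at 56.2, 57.4 and 57.8 CPM with it. The groups were far apart and the 3 libraries with DOX nearly equal. It rose by 3.25 ± 0.08 on the log2 scale (adjusted p = 1.18e-13). Bmp5 (ENSMUSG00000032179, chromosome 9, 75775365 to 75900316), a ligand of the Bmp7 subfamily, went from 6.72, 6.50 and 6.69 CPM to 11.8, 12.2 and 14.1 CPM, with no overlap, a change of 0.95 ± 0.10 (adjusted p = 1.66e-06). Bmp2 (ENSMUSG00000027358, chromosome 2, 133552159 to 133562896), the closest relative of Bmp4, moved the other way. It was at 21.5, 22.8 and 22.9 CPM without DOX and at 15.7, 17.2 and 15.3 CPM with it, all lower, a change of -0.47 ± 0.08 (adjusted p = 0.000299). Bmp7 (ENSMUSG00000008999, chromosome 2, 172868012 to 172940321) was at 45.5, 45.0 and 43.7 CPM without DOX and at 30.1, 27.5 and 27.6 CPM with it, also without overlap, a change of -0.64 ± 0.07 (adjusted p = 5.46e-06).

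The targets all rose. Msx2 (ENSMUSG00000021469, chromosome 13, 53466881 to 53472780) was low in every library without DOX, at 0.498, 0.743 and 0.540 CPM, and was at 30.1, 25.9 and 23.9 CPM with it. Its log2 change of 5.47 ± 0.16 was the largest of the 10 (adjusted p = 5.38e-13). Smad6 (ENSMUSG00000036867, chromosome 9, 63953076 to 64022085) went from 12.6, 13.0 and 11.5 CPM to 38.7, 38.4 and 31.8 CPM, a change of 1.57 ± 0.10 (adjusted p = 5.29e-09). Smad7 (ENSMUSG00000025880, chromosome 18, 75367365 to 75395935), the inhibitory SMAD that also restrains TGF-beta and activin signals, went from 32.6, 34.1 and 33.4 CPM to 79.1, 82.9 and 74.1 CPM, a change of 1.25 ± 0.07 (adjusted p = 1.84e-09). For both inhibitory SMADs every library with DOX lay well above every library without. The 3 Id genes changed less. Id1 (ENSMUSG00000042745, chromosome 2, 152736251 to 152737410) was at 18.3, 17.3 and 16.2 CPM without DOX and at 34.6, 29.8 and 33.6 CPM with it, a change of 0.93 ± 0.09 (adjusted p = 4.24e-07). Id2 (ENSMUSG00000020644, chromosome 12, 25093799 to 25096092) went from 21.6, 18.2 and 22.05 CPM to 32.3, 32.5 and 36.2 CPM, a change of 0.72 ± 0.08 (adjusted p = 2.18e-06). Id3 (ENSMUSG00000007872, chromosome 4, 136143822 to 136145392) had the smallest rise, from 22.2, 22.4 and 23.6 CPM to 32.8, 28.0 and 32.1 CPM, a change of 0.46 ± 0.08 (adjusted p = 0.00022).

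Cell type markers moved in the same libraries. Without and with DOX, summed endothelial markers were at 18.1 to 21.2 and 409 to 416 CPM, blood markers at 12.3 to 16.0 and 290 to 311 CPM, and primitive streak and mesoderm markers at 1076 to 1140 and 1474 to 1528 CPM. All 6 endothelial and all 6 blood markers rose, and 7 of 8 streak and mesoderm markers rose and 1 fell. Their part in the BMP gene changes was not tested.

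**Figure D1:**
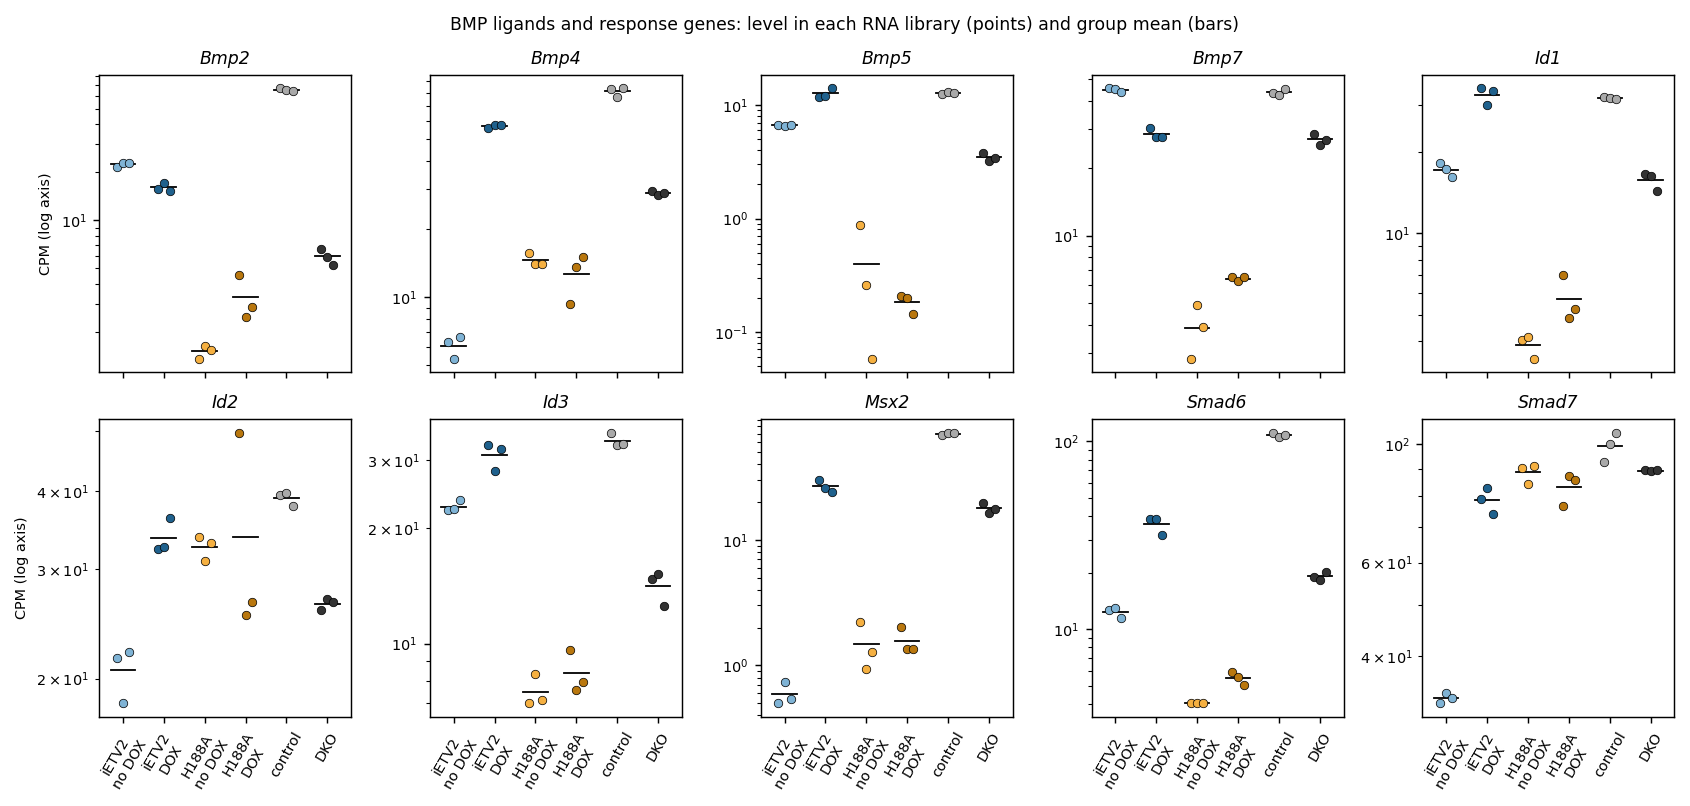
Level of each of the 10 genes in CPM (log axis, 1 panel per gene) in each of the 18 RNA libraries (points, 3 per group) with the group mean (bar). In iETV2, Msx2 lies under 1 CPM in all 3 libraries without DOX and between 23.9 and 30.1 CPM with it, while in the H188A line it stays between 0.939 and 2.21 CPM in all 6 libraries.

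In the H188A line, 1 of the 10 genes passed the test with DOX, Bmp2, which rose, and none fell. Of 21086 genes tested, 2.22% rose and 0.801% fell. The median log2 change of the 10 was 0.18, beside -0.01 over all genes. Of the 10, 4 had an unadjusted p under 0.05, with no share over all genes counted, so this count is not shown to be particular to them. DESeq2's Wald test called 2 of the 10, beside 1388 of the same 21086 genes.

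Bmp2 was at 1.36, 1.64 and 1.55 CPM without DOX and at 4.54, 2.50 and 2.88 CPM with it. Each library with DOX was above each without, but replicate 1, which also had the high visceral endoderm markers, stood apart from the other two. The change of 1.17 ± 0.25 (adjusted p = 0.0421) lost its call without any 1 of 5 of the 6 libraries: the adjusted p was 0.115 and 0.173 without replicates 1 and 2 of the group without DOX, and 0.0639, 0.0586 and 0.12 without replicates 1, 2 and 3 with DOX. Bmp7 was at 2.83, 4.92 and 3.90 CPM without DOX and at 6.51, 6.27 and 6.51 CPM with it. Its groups did not overlap, and its log2 change of 0.76 ± 0.18 did not pass (adjusted p = 0.0552). Bmp4, at 15.6, 14.1 and 14.1 CPM without DOX and 9.31, 13.5 and 15.0 CPM with it, overlapped between the groups. Its change was -0.16 ± 0.15 (adjusted p = 0.548, 95% interval -0.49 to 0.18), an interval far from the rise in iETV2. Bmp5 was near the limit of counting, at 0.868, 0.261 and 0.0580 CPM without DOX and 0.207, 0.200 and 0.145 CPM with it. Its highest value was in the library with the most chemosensory receptor RNA, and its change of -1.01 ± 0.87 (adjusted p = 0.51) became 0.25 without that library.

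Among the targets in the H188A line, Smad6 was at 4.02, 4.05 and 4.03 CPM without DOX and 5.89, 5.53 and 5.02 CPM with it, without overlap, and Id1 at 4.04, 4.14 and 3.44 CPM and 7.03, 4.85 and 5.27 CPM, also without overlap. Neither passed, with log2 changes of 0.49 ± 0.12 (adjusted p = 0.0626) and 0.61 ± 0.17 (adjusted p = 0.0767). Without a filter on low counts, Bmp7, Smad6 and Id1 passed (adjusted p = 1.15e-05, 0.0201 and 0.00156), as they did in 1 fit of all 18 libraries (adjusted p = 0.000889, 0.0146 and 0.00628). Bmp7 also passed DESeq2's Wald test (adjusted p = 0.0132). Id3 was at 6.99, 8.33 and 7.13 CPM without DOX and 9.60, 7.57 and 7.94 CPM with it, overlapping, with a change of 0.21 ± 0.13 (adjusted p = 0.353). Id2 was at 33.8, 30.9 and 33.0 CPM without DOX and 49.6, 25.3 and 26.5 CPM with it. Only replicate 1 with DOX was higher than the libraries without it, and the change of 0.10 ± 0.22 (adjusted p = 0.803) turned to -0.27 without that library. Smad7 was high in both groups, at 90.2, 84.2 and 91.2 CPM and 76.6, 87.3 and 85.6 CPM, with a change of -0.04 ± 0.06 (adjusted p = 0.698, 95% interval -0.18 to 0.10). Msx2 was low in both, at 2.21, 0.939 and 1.28 CPM and 2.01, 1.36 and 1.35 CPM, with a change of 0.16 ± 0.34 (adjusted p = 0.809, 95% interval -0.61 to 0.92).

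Endothelial markers moved with DOX in the H188A line as well: 5 of 6 rose, and their sum was at 89.1 to 95.6 CPM without DOX and 197 to 203 CPM with it. Of the blood markers, 1 of 5 tested rose, with sums of 22.4 to 25.2 and 30.7 to 33.5 CPM. Their part in the values of the BMP genes was not tested.

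The DOX changes of the lines were compared by an interaction term over the 12 libraries of both experiments, as the change in the H188A line minus that in iETV2. It passed for 6 of the 10 genes, 2 more positive and 4 more negative in the H188A line. Over 25516 genes tested, 8.22% were more positive and 6.2% more negative. The difference was -5.29 ± 0.37 for Msx2 (adjusted p = 1.32e-07), -3.39 ± 0.18 for Bmp4 (adjusted p = 1.26e-08), -1.29 ± 0.11 for Smad7 (adjusted p = 1.03e-06) and -1.08 ± 0.16 for Smad6 (adjusted p = 0.000271). These 4 genes rose with DOX in iETV2 and did not pass in the H188A line. For Bmp2 and Bmp7, which fell in iETV2, the difference was positive, at 1.63 ± 0.24 (adjusted p = 0.000224) and 1.40 ± 0.19 (adjusted p = 8.16e-05). For the 3 Id genes the difference did not pass: it was -0.31 ± 0.18 for Id1 (adjusted p = 0.304), -0.61 ± 0.26 for Id2 (adjusted p = 0.145) and -0.25 ± 0.15 for Id3 (adjusted p = 0.294). That of Bmp5 was -1.81 ± 0.66 (adjusted p = 0.0871). The Bmp5 value was set by single libraries of the H188A line without DOX: over the alternatives it ranged from -2.39 without replicate 3 (adjusted p = 0.00106) to -0.66 without replicate 1 (adjusted p = 0.476). It also passed without a filter on low counts (adjusted p = 0.000422) and in 1 fit of all 18 libraries (adjusted p = 0.0329). With the replicate number as a block, Bmp5 and Id2 passed (adjusted p = 0.0253 and 0.0343), and Id2 also passed without replicate 1 of the H188A line with DOX (-1.02, adjusted p = 4.56e-05). Line and experiment are the same split here and cannot be told apart.

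**Figure D2:**
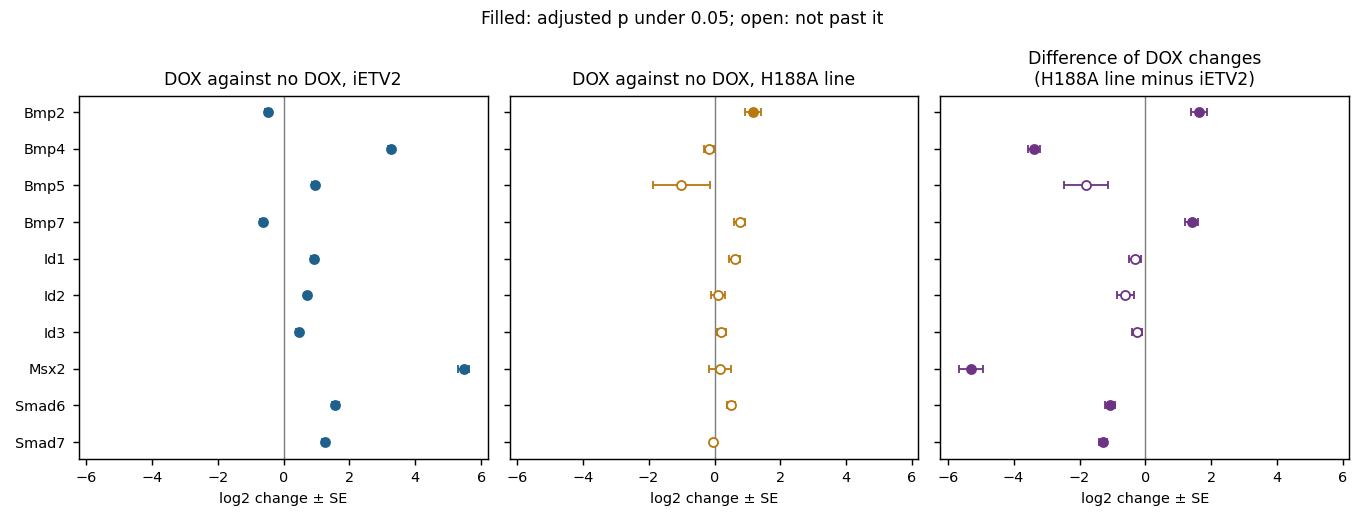
Log2 change ± SE of each gene with DOX in iETV2 (left), in the H188A line (middle) and the difference between them (right), filled where the adjusted p was under 0.05. All 10 points are filled in iETV2 and 1, Bmp2, in the H188A line, and Bmp4 and Msx2 have the most negative differences.

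Levels also differed between the lines, in both directions, in the libraries without DOX. There all 10 genes passed, 4 higher and 6 lower in the H188A line, while 19.7% of all genes tested were higher and 18.6% lower. Those that were lower were Bmp5 (-4.21 ± 0.41, adjusted p = 4.73e-07), Bmp2 (-3.82 ± 0.18, adjusted p = 1.19e-10), Bmp7 (-3.45 ± 0.14, adjusted p = 2.03e-11), Id1 (-2.11 ± 0.13, adjusted p = 3.36e-09), Smad6 (-1.56 ± 0.12, adjusted p = 2.67e-08) and Id3 (-1.54 ± 0.10, adjusted p = 7.13e-09). So 3 of 4 ligands were lower, and Bmp4 was the exception. The size for Bmp5 rests on few counts in the H188A line, with its highest value in the library with the most chemosensory receptor RNA: it was -5.36 without that library and -3.62 without replicate 3 of the group. Smad7 (1.46 ± 0.08, adjusted p = 6.44e-10), Bmp4 (1.31 ± 0.13, adjusted p = 7.51e-07), Msx2 (1.29 ± 0.29, adjusted p = 0.00208) and Id2 (0.71 ± 0.19, adjusted p = 0.00603) were higher. The 2 inhibitory SMADs thus differed between the lines in opposite directions.

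With DOX in both lines, 8 of the 10 genes were lower in the H188A line and none higher, while 17.6% of all genes tested were lower and 19.9% higher. Bmp4 and Msx2 had changed sides, at -2.08 ± 0.13 (adjusted p = 2.34e-09) and -4.0 ± 0.24 (adjusted p = 1.97e-09). Bmp5 was at -6.02 ± 0.45, Smad6 at -2.64 ± 0.12, Id1 at -2.42 ± 0.13, Bmp2 at -2.19 ± 0.17, Bmp7 at -2.05 ± 0.13 and Id3 at -1.79 ± 0.10, with adjusted p of 3.04e-08 or less. Smad7 (0.17 ± 0.08, adjusted p = 0.102) and Id2 (0.10 ± 0.18, adjusted p = 0.704) did not pass. Smad7 passed with the replicate number as a block (adjusted p = 0.0267), and Id2 turned to -0.30 (adjusted p = 0.0301) without replicate 1 of the H188A line with DOX. These comparisons share their libraries with the DOX comparisons above. Summed streak and mesoderm markers were at 19.6 to 21.0 CPM without DOX and 25.3 to 26.5 CPM with it in the H188A line, against at least 1076 CPM in every iETV2 library. Other marker sums were apart as well. Without DOX, mean sums in iETV2 and in the H188A line were 691 and 1751 CPM for pluripotency, 15.9 and 113 CPM for neural cells, 180 and 513 CPM for visceral endoderm, 226 and 62.8 CPM for trophoblast and 19.9 and 92.5 CPM for endothelium. The sums hide genes that went the other way. Of 6 endothelial markers, 3 were higher in the H188A line without DOX and 3 lower. Of 9 visceral endoderm markers, 4 were higher and 2 lower, and of 6 trophoblast markers 1 was higher and 4 lower. Of 8 pluripotency markers, 7 were higher and none lower, and all 6 neural markers were higher. The part of these markers in the line differences was not tested.

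In the libraries labelled DKO, all 10 genes fell against control. This is read beside 33.7% of all 20426 genes tested that fell and 35.6% that rose. The median log2 change of the 10 was -1.49, beside 0.04 over all genes. Bmp2 went from 67.1, 65.3 and 64.0 CPM to 6.64, 5.91 and 5.28 CPM, the largest fall of the 10, with a log2 change of -3.59 ± 0.07 (adjusted p = 9.77e-21). Smad6 went from 111, 106 and 108 CPM to 19.1, 18.4 and 20.1 CPM, a change of -2.62 ± 0.05 (adjusted p = 7.48e-21). Both groups were tight and lay far apart for these genes. Msx2 went from 68.2, 70.9 and 71.0 CPM to 19.6, 16.4 and 17.7 CPM (-2.10 ± 0.06, adjusted p = 2.76e-18) and Bmp5 from 12.5, 13.0 and 12.8 CPM to 3.75, 3.25 and 3.41 CPM (-2.01 ± 0.10, adjusted p = 8.53e-14). Bmp4 went from 83.1, 76.5 and 84.1 CPM to 29.4, 28.3 and 28.9 CPM (-1.62 ± 0.05, adjusted p = 9.99e-18). None of these overlapped between the groups. Id3 was at 35.3, 32.8 and 33.0 CPM in control and 14.8, 15.2 and 12.5 CPM in the libraries labelled DKO (-1.37 ± 0.07, adjusted p = 3.16e-13), and Id1 at 32.1, 31.9 and 31.6 CPM and 16.7, 16.3 and 14.4 CPM (-1.14 ± 0.07, adjusted p = 1.4e-12). Bmp7, at 43.4, 42.5 and 45.2 CPM and 28.3, 25.4 and 26.7 CPM, changed by -0.83 ± 0.05 (adjusted p = 1.01e-11), and Id2, at 39.4, 39.7 and 37.9 CPM and 25.8, 26.8 and 26.6 CPM, by -0.69 ± 0.06 (adjusted p = 3.78e-10). Neither overlapped between the groups, and their log2 changes were nearer 0 than those of the other ligands and Id genes. Smad7 changed least, from 92.6, 100.3 and 105 CPM to 89.3, 89.0 and 89.3 CPM (-0.28 ± 0.04, adjusted p = 4.09e-06), and its lowest control library lay just above the libraries labelled DKO.

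The markers of other cell types differed widely in the same comparison. Summed blood markers were at 1276 to 1332 CPM in control and 28.4 to 29.9 CPM in the libraries labelled DKO, endothelial markers at 614 to 625 and 124 to 129 CPM, and pluripotency markers at 45.6 to 50.3 and 1173 to 1236 CPM. All 6 blood and all 6 endothelial markers fell and all 8 pluripotency markers rose. Their part in the falls of the BMP genes was not tested.

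**Figure D3:**
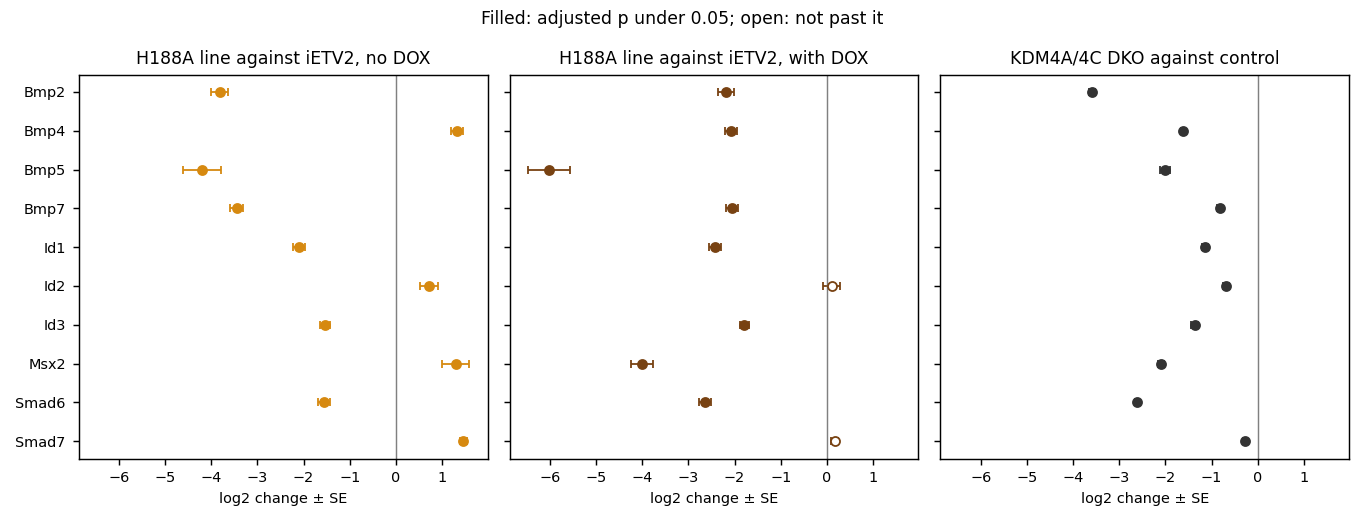
Log2 difference ± SE of each gene between the H188A line and iETV2 without DOX (left) and with DOX (middle), and between the libraries labelled DKO and control (right), filled where the adjusted p was under 0.05. All 10 points are filled and below 0 for DKO, with Bmp2 at -3.59 and Smad7 at -0.28, while without DOX 4 of the 10 lie above 0 between the lines.

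Across the 6 RNA groups, the order of the levels differed from gene to gene. The control of the knockout experiment had the highest mean for 8 of the 10 genes, though for Bmp5 and Id3 its libraries overlapped those of iETV2 with DOX, and for Id2 those of the H188A line with DOX. Bmp7 was highest in iETV2 without DOX and Id1 in iETV2 with DOX, each overlapping the knockout experiment's control. An H188A group had the lowest mean for 6 genes, Bmp2, Bmp5, Bmp7, Id1, Id3 and Smad6. For the other 4, Bmp4, Id2, Smad7 and Msx2, iETV2 without DOX was lowest. The highest group mean was 118 times the lowest for Msx2, 69.5 times for Bmp5, 43.2 times for Bmp2 and 26.9 times for Smad6. It was 13.3 times for Bmp4, 11.5 times for Bmp7 and 8.43 times for Id1. The narrowest ranges were those of Id3 (4.50 times), Smad7 (2.98 times) and Id2 (1.89 times), and for Smad7 the 4 groups from the libraries labelled DKO down to iETV2 with DOX each overlapped the next. Within the H188A line, the groups without and with DOX were neighbours and overlapped for Bmp4, Bmp5, Id3, Smad7 and Msx2. The libraries labelled DKO overlapped iETV2 with DOX for Bmp7 and iETV2 without DOX for Id1. For Bmp2 and Smad6 no neighbouring groups overlapped. The experiments were not compared by a test beyond those above.

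Patterns over the 18 libraries were compared by Pearson's r of log2(CPM + 1). These points fall into 6 groups, so the values are descriptions. Bmp4 and Msx2 went together (r = 0.96), as did Id1 with Id3 and Bmp5 (r = 0.97 to 0.98). Smad6 had r = 0.91 with Id1 and 0.9 with Msx2. Smad7 and Id2 were less like the others: r was between -0.37 (Bmp7) and 0.68 (Bmp4) for Smad7, between -0.22 (Bmp7) and 0.67 (Smad7) for Id2. Among 13238 genes with a mean of at least 1 CPM, the genes most like each were Tmod3 (r = 0.987), Sh3glb1 and Cox4i2 for Bmp2, Anxa6 (r = 0.968), B4galt5 and Msx2 for Bmp4, Tgfb2 (r = 0.987), Cxcr4 and Tbc1d4 for Bmp5, and Rap1gds1 (r = 0.983), Cdkal1 and Sdc2 for Bmp7. Those most like the Id genes were Nkd1 (r = 0.99), Hmga2 and Zkscan3 for Id1, Prtg (r = 0.987), E2f3 and Ints6l for Id3, and, at lower likeness, Sox7 (r = 0.876), Scube2 and Atg3 for Id2. For Smad6 they were Bambi (r = 0.992), a BMP pseudoreceptor and itself a BMP target, Rap1a and Micall2. For Smad7 they were Tmem229b (r = 0.956), Wdr12 and Lifr, and for Msx2 Kirrel (r = 0.981), Abi3 and Tnik.

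The other genes of the pathway were taken from a list of 54. With DOX in iETV2, 16 of the 50 tested rose and 9 fell, beside 13.7% and 13.3% of all genes tested. The median log2 change of the 50 was 0.13. Msx1, the sister gene of Msx2, rose by 3.77 ± 0.09 (adjusted p = 5.45e-14), from 4.66, 4.34 and 4.58 CPM to 65.6, 57.5 and 59.9 CPM. The secreted antagonists moved in both directions, 4 up and 4 down of 16 tested. Chrd, which encodes the BMP-binding protein chordin, went from 115, 113 and 115 CPM to 18.1, 17.4 and 19.1 CPM (-2.64 ± 0.07, adjusted p = 1.81e-13), and Cer1, an antagonist of BMP and Nodal, from 114, 119 and 115 CPM to 19.8, 19.6 and 17.1 CPM (-2.60 ± 0.08, adjusted p = 1.6e-12). Bmper, a modulator that binds BMPs outside the cell, rose from 5.69, 5.28 and 5.05 CPM to 34.1, 35.0 and 34.2 CPM (2.7 ± 0.09, adjusted p = 1.83e-12). Of the receptors and coreceptors, 4 of 11 rose and 5 fell, and of the SMADs and their regulators 3 of 8 rose and none fell. Chosen after the values were seen, Nog, which encodes the antagonist noggin, fell, with a log2 change of -2.31 ± 0.14 (adjusted p = 3.43e-09), and the endothelial BMP9 and BMP10 receptor genes Acvrl1 and Eng both rose, by 2.7 ± 0.19 (adjusted p = 2.12e-08) and 2.7 ± 0.09 (adjusted p = 2.43e-12).

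In the H188A line, none of the 46 other pathway genes tested passed edgeR's test with DOX. Of all genes tested, 2.22% rose and 0.801% fell. Of the 46, 11 had an unadjusted p under 0.05, with no share over all genes counted, so this count is not shown to be particular to them. DESeq2's Wald test called 2 of the 46, beside 1388 of the same 21086 genes. The interaction passed for 18 of 51, 7 more positive and 11 more negative in the H188A line. Over all genes tested, 8.22% were more positive and 6.2% more negative. The interaction was -3.99 ± 0.15 for Msx1 (adjusted p = 1.56e-10) and -2.34 ± 0.15 for Eng (adjusted p = 4.18e-08). It was 2.43 ± 0.19 for Chrd (adjusted p = 3.26e-07) and -1.23 ± 0.12 for Bambi (adjusted p = 2.39e-06). Between the lines without DOX, 10 of 51 were higher and 20 lower in the H188A line, beside 19.7% and 18.6% of all genes tested. Cer1 (-8.84 ± 0.20, adjusted p = 5.49e-14) and Chrd (-4.78 ± 0.14, adjusted p = 3.71e-13) were lower, and Gdf3, a ligand of pluripotent cells (2.62 ± 0.07, adjusted p = 2.74e-13), and Eng (2.81 ± 0.11, adjusted p = 1.34e-11) were higher. With DOX, 8 of 51 were higher and 23 lower, beside 19.9% and 17.6% of all genes tested. Msx1 (-5.63 ± 0.10, adjusted p = 4.29e-15), Cer1 (-7.63 ± 0.24, adjusted p = 1.88e-12) and Bambi (-2.09 ± 0.08, adjusted p = 2.01e-11) were lower. Gdf3 (2.11 ± 0.07, adjusted p = 3.58e-12) was higher. The sizes for Cer1 rest on few counts in the H188A line, where its edgeR change with DOX was -1.44 ± 0.84 (adjusted p = 0.335).

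In the libraries labelled DKO, 17 of 48 other pathway genes tested rose and 24 fell, beside 35.6% and 33.7% of all genes tested. The median log2 change of the 48 was -0.22. Both directions occurred in every role, with 3 ligands up and 3 down of 7, 3 receptors up and 8 down of 11, 3 SMAD genes up and 4 down of 8, 7 antagonists up and 5 down of 15, and 1 target up and 4 down of 7. Fst, which encodes the activin and BMP antagonist follistatin, rose from 11.4, 11.5 and 11.1 CPM to 135.8, 136.3 and 136.2 CPM (3.47 ± 0.05, adjusted p = 4.29e-23). Gdf3 rose from 1.02, 0.765 and 1.22 CPM to 55.9, 59.0 and 64.2 CPM (5.75 ± 0.10, adjusted p = 1.87e-21). Bambi fell from 88.3, 86.9 and 87.3 CPM to 18.2, 18.2 and 16.8 CPM (-2.42 ± 0.05, adjusted p = 2.04e-20). Acvrl1 fell from 37.3, 34.9 and 33.7 CPM to 3.58, 3.46 and 3.96 CPM (-3.39 ± 0.08, adjusted p = 5.09e-19). For these 4 genes the replicates of each group were close and the groups did not overlap.

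**Figure D4:**
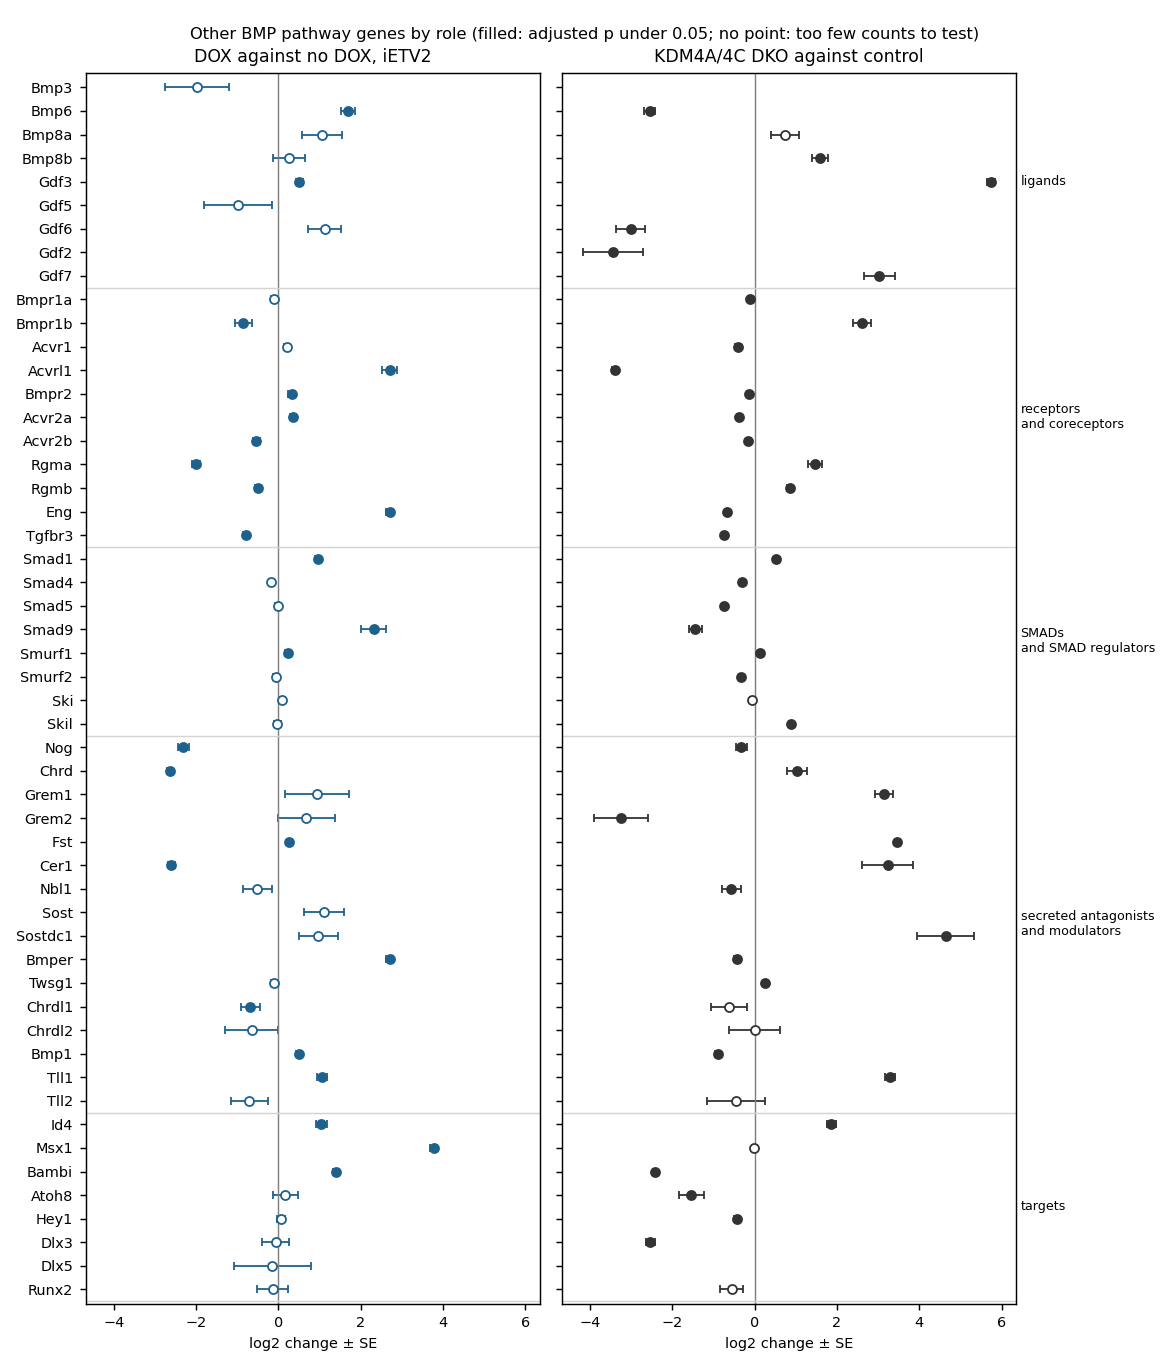
Log2 change ± SE of the other BMP pathway genes, in rows ordered by role, with DOX in iETV2 (left) and in the libraries labelled DKO (right), filled where the adjusted p was under 0.05, with no point for genes with too few counts. Msx1 at 3.77 and Chrd at -2.64 are the largest rise and the largest fall on the left. On the right, Gdf3 lies at 5.75 and Acvrl1 at -3.39.

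H3K9me3 was examined at the 10 genes in the authors' regions, which were called in each of the 6 ChIP libraries, with 37129 to 50838 regions per library. Counting any overlap with the gene or 5 kb on either side, 2 of the 10 genes had a region, each in 1 of 6 libraries, so that no gene had regions in all libraries of a group. In comparison, 38.4% of 21887 protein-coding genes had a region in at least 1 library and 19.4% in all 6. The Bmp7 region lay inside the gene at chr2:172889000-172892999 in replicate 2 with DOX, with 137 ChIP counts and 92 input counts, and the authors' deposited table gave it a log2 fold of 0.79. The Smad6 region lay inside the gene at chr9:64011000-64012399 in replicate 3 without DOX, with 77 ChIP counts and 23 input counts and a log2 fold of 1.58 in the authors' deposited table. No region was called at Bmp2, Bmp4, Bmp5, Id1, Id2, Id3, Smad7 or Msx2. The ChIP libraries are from another experiment than the RNA, with no cell line named, and a region that was not called is not a measurement of no H3K9me3.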

How the data were processed

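RNA levels are raw read counts per Ensembl gene, deposited by the authors as 1 table for each of 18 libraries. Per the submitters' processing notes, featureCounts 2.0.6, DESeq2 1.18.1, STAR 2.7.10b, HTSeq 2.0.3, StringTie 2.2.1 and Picard 3.0.0 were named without roles, with builds GRCm38 and mm10. The counting program and strand setting are not given in the sources used here, so antisense and overlapping genes are not separated with certainty. The authors' ChIP regions hold, per the file headers, ChIP and input counts, a log2 fold change and a p-value with its FDR. The input libraries and protein sequences were not used here.

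Symbols were assigned to 55141 of 55487 genes. Each experiment was fitted alone in edgeR 4.0.16 (R 4.3.3): filterByExpr by group, TMM, quasi-likelihood F test and Benjamini-Hochberg adjustment over all genes tested, threshold 0.05. Line comparisons and the interaction used 1 fit of 12 libraries with 4 group means. CPM are counts scaled to a library total of 1000000, not scaled by TMM or gene length, so levels are not compared between genes. Each SE was computed from the test, as the absolute log2 change over the square root of its F value. The 95% intervals use that SE and a t distribution. Only the edgeR test with DOX in iETV2 was tried on simulated counts with known changes. The other fits and the alternatives were not. Read totals set the precision of low genes, such as Bmp5 in the H188A line.

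The 10 genes, the pathway list and the marker lists were chosen with earlier results of these data known. Named are the 10 genes, label checks, in each comparison up to 4 other pathway genes with the smallest adjusted p, and the 3 genes of most similar pattern. No libraries were duplicates. Replicate numbers from the titles were not used in the reported fits, only in the replicate block. In the first experiment, the deviations of same-numbered libraries from their group means correlated at r = 0.14, 0.43 and 0.5. Replicate 2 without DOX and replicate 1 with DOX had r = 0.33, so pairing by number is not certain. Alternatives were DESeq2 1.42.0 size factors and Wald test (independent filtering off), no filter or at least 1 CPM in 3 libraries, a replicate block, 1 fit of 18 libraries, a chemosensory receptor covariate, leaving out each library, and for H3K9me3 no flank or an FDR of 0.01 or less.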

Additional observations from a re-analysis of the deposited data

Results flagged for a closer look

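For 6 genes the DOX change differed between the H188A line and iETV2 by the interaction term (edgeR's quasi-likelihood test over 12 libraries, log2 scale, H188A line minus iETV2). The differences were 1.63 for Bmp2, 1.40 for Bmp7, -1.08 for Smad6, -1.29 for Smad7, -3.39 for Bmp4 and -5.29 for Msx2. The within-line changes of iETV2 and the H188A line were -0.47 and 1.17 for Bmp2, -0.64 and 0.76 for Bmp7, 1.57 and 0.49 for Smad6, 1.25 and -0.04 for Smad7, 3.25 and -0.16 for Bmp4, and 5.47 and 0.16 for Msx2. Line and experiment cannot be told apart in this comparison.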

How the results depend on the processing

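For single genes, all 120 alternative values with DOX in iETV2, all 120 for the libraries labelled DKO and all 180 between the lines without DOX kept the direction and the side of the threshold. Of 190 for the interaction, 184 did so and 6 passed where the reported value did not. Between the lines with DOX, 178 of 180 did so, 1 gained a call and 1 changed sign. With DOX in the H188A line, 106 of 129 kept both, 7 lost the call, 7 gained it and 9 changed sign, mostly values near 0. There the number of genes changed, 637, was 423 with DESeq2 size factors, 1388 by DESeq2's Wald test, 2032 without a filter, 121 with the receptor covariate and 1596 in the fit of 18 libraries. Leaving out 1 library gave 81 to 1839 genes: 203, 81 and 1839 without replicates 1, 2 and 3 without DOX, and 140 and 91 without replicates 2 and 3 with DOX. Of the 10 BMP genes, 1 had passed, against 2 by DESeq2's Wald test, 4 without a filter, 0 with the covariate, 4 in the fit of 18 libraries, and 0 to 1 when 1 library was left out. The log2 change of Smad7 was 0.01 without a filter and that of Bmp5 1.31 with the covariate. Leaving out 1 library, the change was -1.51 to 0.25 for Bmp5, -0.09 to 0.52 for Msx2, -0.09 to 0.02 for Smad7, -0.29 to 0.03 for Bmp4 and -0.27 to 0.30 for Id2, and the line difference of Id2 with DOX was -0.30 to 0.29. The cause was not tested. A count of 2 genes with an H3K9me3 region held without a flank and at the stricter FDR.

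With the replicate number as a block, 263 genes and 0 of the 10 passed with DOX in the H188A line, and Bmp2 had an adjusted p of 0.0875. In the other comparisons the block gave 8380 genes with DOX in iETV2 (5939 without it), 4849 for the interaction (3679 without it) and 13926 for the libraries labelled DKO (14153 without it), and beside the calls given above it changed none for the 10 genes. Whether the numbers pair samples is not certain in any experiment. Same-numbered libraries correlated at 0.14, 0.43 and 0.5 in the first, where replicate 2 without DOX and replicate 1 with DOX had 0.33. They correlated at -0.09, 0 and 0.26 in the second experiment and at 0.02, 0 and 0.03 in the third.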

Other observations

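Close relatives of the genes described did not all move with them, as read from values chosen after they were seen and with no test between genes. In the libraries labelled DKO, Id4, another inhibitor of basic helix-loop-helix factors, rose from 2.98, 2.92 and 3.05 CPM to 11.1, 12.8 and 11.4 CPM (log2 change 1.86 ± 0.11, edgeR adjusted p = 1.18e-12), where Id1, Id2 and Id3 fell. Msx1 was at 44.7, 45.4 and 41.9 CPM in control and 50.5, 48.8 and 43.2 CPM in the libraries labelled DKO, overlapping, with a log2 change of -0.01 ± 0.06 (edgeR adjusted p = 0.85, 95% interval -0.13 to 0.11), where Msx2 fell by 2.10 on the log2 scale.

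In the H188A line with DOX, replicate 1 had high visceral endoderm markers. It had the highest level of the 3 libraries for 9 of 16 antagonists and modulators, and replicate 2 for the other 7. A tie would count for replicate 1, and only 14 of the 16 had enough counts to be tested with DOX in this line. No share over all genes was counted, so the split is not shown to be particular to these genes. Chosen after the values were seen, Bmper was at 17.4 CPM in replicate 1 and at 4.65 and 5.06 CPM in the others, Nog at 2.92 CPM against 0.459 and 0.692 CPM, and Fst at 44.5 CPM against 25.9 and 25.6 CPM. In the same library Bmp2 was at 4.54 CPM against 2.50 and 2.88 CPM, and Id2 at 49.6 CPM against 25.3 and 26.5 CPM. Bmp4 and Smad7 went the other way, at 9.31 CPM against 13.5 and 15.0 CPM and at 76.6 CPM against 87.3 and 85.6 CPM. Summed fibroblast markers were also higher in replicate 1, at 108 CPM against 55.7 and 48.9 CPM. The part of either marker list in these values was not tested.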
